A study of Mus musculus with 4 samples.

Results

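Long intergenic noncoding RNAs (lincRNAs) were measured here as genomic regions, each named by its interval on the mouse mm9 assembly and by the strand read, F for forward and R for reverse. The regions are all those whose non-control probes carry such an interval as their name, 1 region for each interval and strand. This gave 4607 regions, 2318 forward and 2289 reverse, read by 16181 of the 55681 non-control probes on the array. They cover 3540 intervals on 20 chromosomes, of which 1067 intervals were probed on both strands. A region was 10676 bp long in the median and held 3 probes of 60 nt in the median, with 690 regions read by 1 probe and none by more than 10. A further 70 probes that the array describes as lincRNA carry a gene name and are not among them.

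The series compared the transcriptomes of 4 mouse cell populations on 1-colour Agilent arrays, with 1 Cy3-labelled total RNA sample on 1 array for each. MEF are mouse embryonic fibroblasts of the C57BL/6 background, grown without LIF, the cytokine that keeps mouse stem cells undifferentiated. iPS-OSH and iPS-J are induced pluripotent stem cell lines of the C57BL/6 background and ESC are embryonic stem cells of the 129SV background, all grown with LIF. Serum was in the medium of every population. The labels give neither the reprogramming method of the iPS lines nor their source cells. Each population has 1 array, so differences carry no replicate error and are given without a test. All 4 arrays lay on 1 slide, but MEF, the iPS lines and ESC were scanned in separate sessions, and only ESC had the 129SV background. Cell type cannot be told apart from scan session or, for ESC, from strain.

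LincRNAs are transcripts longer than small RNAs that are capped, spliced and polyadenylated like messenger RNA but hold no long open reading frame, and lie between protein-coding genes. Many were first found as intervals carrying the chromatin marks of active promoters and transcribed bodies, which give an interval but not its exons or strand. Several act in cis on neighbouring genes or bind chromatin proteins, and in mouse embryonic stem cells some are needed to keep the undifferentiated state.

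The defining markers followed the labels. Summed scaled signals of 8 pluripotency markers, such as Pou5f1, Nanog and Zfp42, were 268 in iPS-OSH, 401 in iPS-J, 492 in ESC and 0.694 in MEF. Much of the ESC sum was Zfp42, with 134 in ESC against 4.67 in iPS-OSH and 6.96 in iPS-J. Of the other markers, Pou5f1, Dppa5a, Tdgf1 and Fgf4 were higher in iPS-J than in ESC, and Sox2, Nanog and Esrrb lower. In MEF Sox2 and Zfp42 were not well above background. The scaled signal is the processed signal divided by the 75th percentile of the array. Summed signals of 8 fibroblast markers were 43.3 in ESC, 53.2 in iPS-J, 265 in iPS-OSH and 1003 in MEF, so iPS-OSH stood between MEF and the other pluripotent arrays. Summed signals of 8 extraembryonic endoderm markers were 147 in iPS-J, 20.7 in ESC, 8.15 in iPS-OSH and 3.90 in MEF. For 4 macrophage markers the sums lay between 4.44 and 8.97 on the 4 arrays.

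The label "intergenic" held only in part against the array's own gene probes. Inside 898 regions (19.5%) lay a probe for a named gene on the same strand, and 463 more held one on the opposite strand only. The other 3246 regions held none, and their nearest gene probe was 15674 bp away in the median. A gene probe inside an interval does not show that the region probes read that gene.

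The probes below belong to regions described further on and are printed 5′ to 3′ as deposited, each under the name of its region. They are the brightest probes of their regions, save those of chr13:66381200-66410200_R and chr16:3337275-3355950_F, where a dimmer probe is the one that shares sequence. The first group comes from 3 separate intervals of chromosome 13 that were bright on all pluripotent arrays, and capitals mark the longest run that the probes share.
chr13:66888650-66902600_R: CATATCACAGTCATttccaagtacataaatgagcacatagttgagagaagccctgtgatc
chr13:66381200-66410200_R: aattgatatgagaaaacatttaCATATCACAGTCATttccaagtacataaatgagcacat
chr13:65716675-65765575_F: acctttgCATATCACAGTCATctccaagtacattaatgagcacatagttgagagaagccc
The next probes come from separate intervals of chromosome 16 and of chromosome 5 where iPS-OSH was the brightest array, with the shared run in capitals.
chr16:3111550-3130500_R: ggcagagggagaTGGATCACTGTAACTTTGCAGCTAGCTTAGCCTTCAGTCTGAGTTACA
chr16:3337275-3355950_F: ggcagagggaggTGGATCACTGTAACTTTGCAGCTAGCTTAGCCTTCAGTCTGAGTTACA
chr5:14943275-14944205_F: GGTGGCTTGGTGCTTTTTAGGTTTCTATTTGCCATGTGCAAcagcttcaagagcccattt
chr5:15146475-15170100_F: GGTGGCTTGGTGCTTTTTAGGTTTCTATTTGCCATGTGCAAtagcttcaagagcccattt

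These sequences show that region names are not always independent readings. Counted from 1 at the 5′ end of the first chromosome 13 probe, the chr13:66381200-66410200_R probe matched it at all 38 overlapping bases, and the chr13:65716675-65765575_F probe at 51 of 53, with the substitutions T15C and A27T. The chromosome 16 probes matched at 59 of 60 bases (A12G) and those of chromosome 5 at 59 of 60 (C42T). A signal on one of these probes may come from any of the loci that match it. Of all region probes, 364 (2.25%, in 263 regions) shared a run of at least 40 bases with a probe of another region in the same orientation. A further comparison with the gene probes found such a run for 177 region probes (1.09%).

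The next probes are the brightest of regions far above MEF on all 3 pluripotent arrays, over or near 2410003L11Rik, Gm2694, Platr21, Slc25a16, Gm6871 and Mir17hg in this order. Capitals mark AATAAA, the core polyadenylation signal, where it occurs.
chr11:97457180-97487074_F: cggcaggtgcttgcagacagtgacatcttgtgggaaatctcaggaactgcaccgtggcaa
chr8:89996710-90049453_F: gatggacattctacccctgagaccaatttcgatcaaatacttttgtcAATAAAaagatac
chrX:135882029-135892277_R: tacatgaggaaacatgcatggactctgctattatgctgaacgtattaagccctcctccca
chr10:62347876-62374346_R: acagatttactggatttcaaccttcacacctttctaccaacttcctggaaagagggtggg
chr7:48794017-48815817_R: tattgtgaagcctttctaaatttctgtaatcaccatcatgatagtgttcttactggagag
chr14:115443612-115445950_F: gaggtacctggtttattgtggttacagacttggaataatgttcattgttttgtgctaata
The brightest probes of regions far below MEF over C430049B03Rik and beside Morrbid follow.
chrX:50407969-50410370_R: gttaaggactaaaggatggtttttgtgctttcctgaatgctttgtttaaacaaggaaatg
chr2:128137419-128141735_R: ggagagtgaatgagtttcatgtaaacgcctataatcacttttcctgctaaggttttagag
The last 3 are bright on 1 array alone, the first and second on ESC and the third on iPS-J, while the other probes of their regions were not.
chr10:95176634-95180141_R: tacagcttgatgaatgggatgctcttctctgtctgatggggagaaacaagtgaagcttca
chr4:155602145-155602619_R: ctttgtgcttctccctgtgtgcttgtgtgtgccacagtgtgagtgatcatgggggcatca
chr12:111617728-111665403_R: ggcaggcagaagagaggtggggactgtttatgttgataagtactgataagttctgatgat

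Most regions gave a signal in every population. Of the 4607 regions, 4599 had a value on all 4 arrays, and each is represented by its probe of highest mean log2 signal. Regions well above background by the scanner software's own call made up 92.2% on MEF, 90.0% on ESC, 89.9% on iPS-OSH and 78.9% on iPS-J. Over regions and genes together the shares were 85.1, 82.7, 82.1 and 72.4% in the same order. The lower share on iPS-J was thus shared by regions and genes, and this array also had the lowest 75th percentile of signal, 1212 against 1553 in iPS-OSH, 1281 in ESC and 1744 in MEF.

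Counted by probe, region probes were detected less often than other probes. Of region probes 70.7% were well above background in iPS-OSH, 54.2% in iPS-J, 70.0% in ESC and 75.5% in MEF, whereas other probes reached 80.5, 71.0, 80.9 and 83.5%. Over all probes the shares were 77.7, 66.1, 77.7 and 81.2%. Taking the brightest of several probes raises the share per region, and in MEF it rose from 76.4% of the 682 regions with a value from a single probe to 93.4% of the 1809 regions with 3 probes and 100% of the 147 with 10. Detection also rose with the GC content of the probe. In MEF it went from 54.8% of region probes with at most 36.7% GC to 94.0% of those with at least 46.7%, and among other probes from 74.2 to 95.5%.

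**Figure D1:**
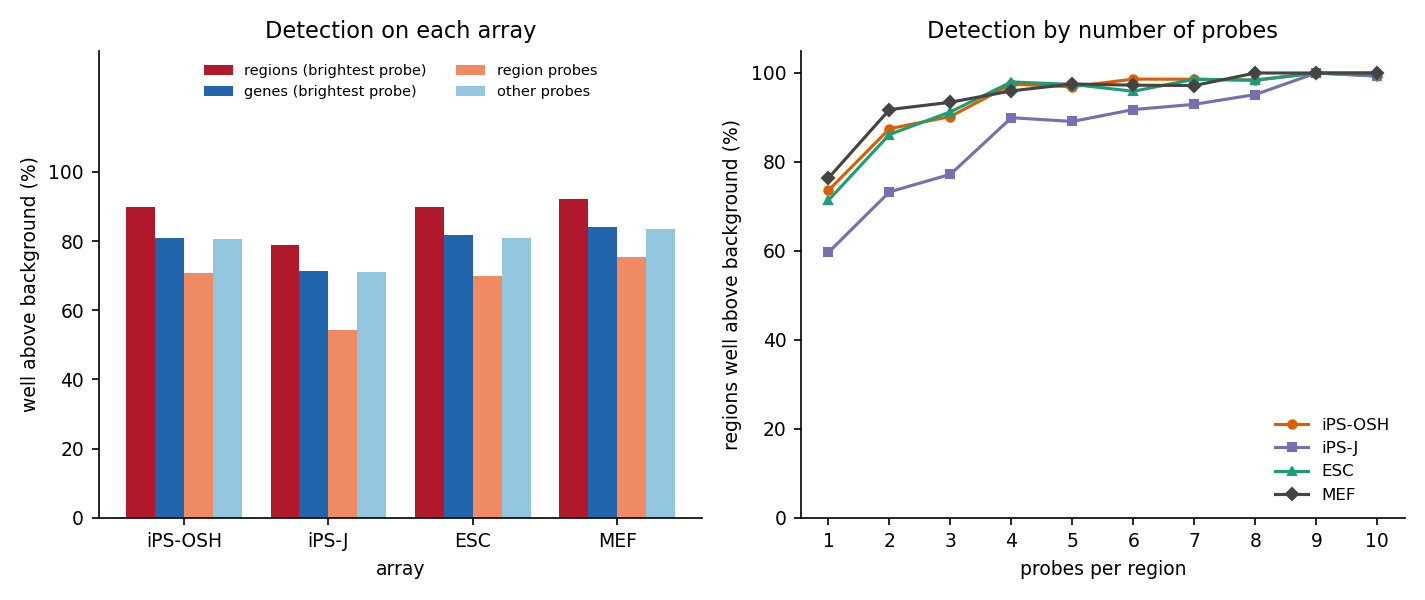
Left, share (%) of regions, genes, region probes and other probes well above background on each array. Right, share (%) of regions detected against the number of probes per region, a line for each array. Regions lie above genes on every array (92.2% against 84.0% in MEF), region probes lie below other probes, and the shares climb with the number of probes.

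Regions restricted to 1 kind of cell were rare. On all 4 arrays 3492 regions (75.9%) were detected and on none 162 (3.52%). The 3 pluripotent arrays without MEF detected 48 regions (1.04%, against 1.53% of genes), and MEF alone detected 92 (2.00%, against 3.39% of genes). ESC alone detected 51 regions (1.11%, against 1.57% of genes), iPS-OSH alone 36 (0.783%, against 0.888%) and iPS-J alone 11 (0.239%, against 0.320%). A further 364 regions (7.91%, against 6.10% of genes) were detected on every array but iPS-J, the array with the fewest detected probes of any kind. The median scaled signal of regions was 0.130 in iPS-OSH, 0.128 in iPS-J, 0.233 in ESC and 0.168 in MEF.

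The comparisons with MEF ask which regions separate pluripotent cells from fibroblasts. A region entered a pair if either array of the pair read it well above background, and 2-fold was taken as the rule of size. In iPS-OSH 478 of 4372 regions (10.9%) were at least 2-fold above MEF and 1292 (29.6%) below, against 13.6 and 25.3% of all features. In iPS-J 466 of 4307 (10.8%) were above and 1299 (30.2%) below, against 16.5 and 25.7%. In ESC 980 of 4384 (22.4%) were above and 400 (9.12%) below, against 22.8 and 16.5%. Regions thus stood lower than all features on the iPS arrays and were less often below MEF in ESC. The median log2 difference over regions was -0.53 for iPS-OSH, -0.54 for iPS-J and 0.27 for ESC, and over all features -0.34, -0.28 and 0.12. For scale, 76 region probes have the sequence of a gene probe. Taken from the disagreement within such pairs, the SD of a single probe's difference between arrays was 0.41 to 0.51 log2. It was computed over the 41 to 60 pairs detected in a comparison.

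How many regions count as higher or lower depends on how the arrays are scaled. Of the regions called different from MEF in iPS-OSH, 27.0% were higher, but 37.6% with quantile scaling and 51.8% with each array centred on the regions detected on all 4. The share for iPS-J, 26.4%, became 38.9% with quantile scaling, 48.1% with centring, 45.2% with normexp background correction, 16% when scaled by the spike-ins and 11.7% in the deposited unscaled table. For ESC, 71.0% of calls were higher, which became 81.3% with a percentile of the commonly detected probes alone. The ESC share fell to 54.5% with quantile scaling, 44.1% unscaled, 43.6% with centring and 37.9% with spike-in scaling. The shift of regions relative to all features was steadier, which is partly fixed in advance. Dividing an array by 1 factor moves regions and genes alike, save for bounds. For iPS-OSH the shift was thus -0.185 in the main setting, with spike-in scaling and unscaled. Over all settings tried the shift ran from -0.26 to -0.13 for iPS-OSH, from -0.39 to -0.15 for iPS-J and from 0.04 to 0.17 for ESC.

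Against ESC, both iPS arrays were lower over most called regions. iPS-OSH was at least 2-fold above ESC in 176 of 4327 regions (4.07%) and below in 1748 (40.4%), against 8.58 and 28.1% of all features. iPS-J was above in 155 of 4206 (3.69%) and below in 1755 (41.7%), against 5.55 and 25.7%. The median differences were -0.76 and -0.80 over regions, and -0.30 and -0.21 over all features. Centring on the regions turned the balance, so that 63.0 and 61.9% of calls were higher in place of 9.15 and 8.12%. Quantile scaling gave 29.7 and 30.0%, spike-in scaling 28.2 and 15.1%, and the table without scaling 19.4 and 6.66%. A percentile of the commonly detected probes alone gave 6.20 and 4.63%, below the main setting. The regions' shift relative to all features ran from -0.54 to -0.25 for iPS-OSH and from -0.64 to -0.30 for iPS-J.

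The iPS lines, scanned in 1 session, differed least. iPS-OSH was at least 2-fold above iPS-J in 274 of 4174 regions (6.56%) and below in 219 (5.25%), against 8.51 and 7.72% of all features. The median difference was 0.04, and 3681 regions lay within 2-fold. The share of calls that were higher in iPS-OSH, 55.6%, became 75.7% with spike-in scaling, 85.1% unscaled and 39.0% with normexp background correction.

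Much of the shift moved with brightness. With regions and genes split together into 4 equal classes by mean signal, 40.7% of regions fell in class 2 and 34.3% in class 3, and 8.0% in class 4, the brightest, which held 27.6% of genes. In the brightest class the median differences of regions were small, -0.13 for iPS-OSH and -0.03 for iPS-J against MEF and -0.06 and 0.05 against ESC. In class 2 they were -0.61 and -0.65 against MEF and -0.91 and -1.03 against ESC, and those of genes were -0.50, -0.55, -0.86 and -0.89. In class 3 regions and genes stood farther apart, with -0.72 for regions and -0.15 for genes in iPS-OSH against ESC. The part of background correction and of scan session in this shift was not tested.

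**Figure D2:**
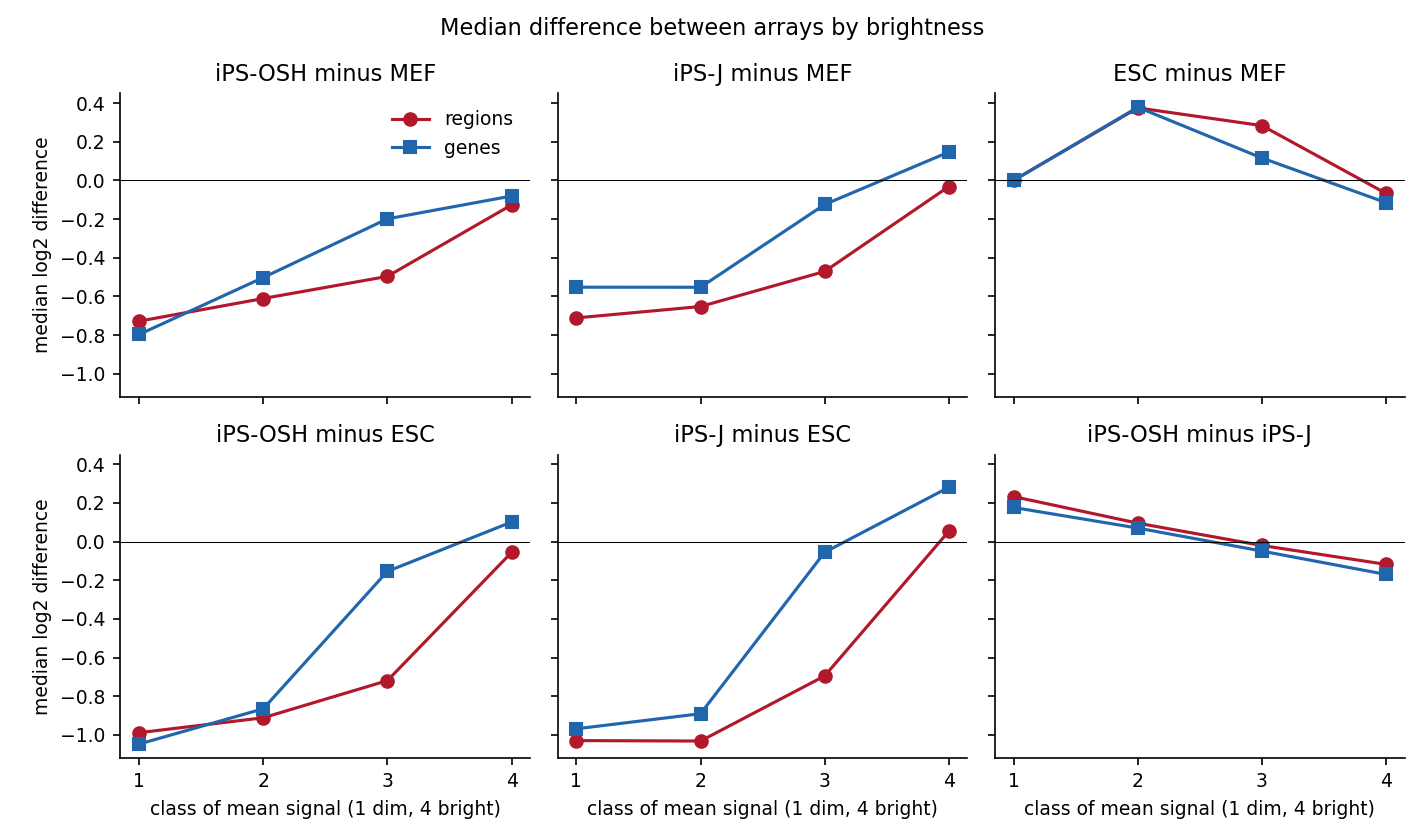
Median log2 difference of regions (circles) and genes (squares) in each pair of arrays, against the class of mean signal from dim (1) to bright (4). In the pairs of an iPS line with MEF or ESC the medians of regions lie nearest 0 in the brightest class, as from -0.61 in class 2 to -0.13 in class 4 for regions in iPS-OSH minus MEF.

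All 3 pluripotent arrays stood at least 2-fold above MEF in 277 of 4287 regions (6.46%), against 8.99% of all features, and below in 214 (4.99%), against 8.97%. At 4-fold there were 106 regions above (2.47%, against 3.92%) and 31 below (0.723%, against 1.8%). Regions that set all pluripotent arrays apart from MEF were thus a smaller share than among all features, in both directions and under this scaling. The count below MEF was not steady. It was 446 in the unscaled table, 444 with spike-in scaling, 125 with normexp, 134 with every array required to detect the region, 112 with detection set by the ERCC control probes (their 95th percentile) and 69 with 2 probes required. The count above MEF fell to 161 with that detection level and to 136 with 2 probes required. The shares of all features under these settings were not computed. These counts share the MEF array, so a single low or high spot there enters all 3 differences.

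Among the brightest regions above MEF were 3 on chromosome 13, each with a probe that shares sequence with the others. Region chr13:66888650-66902600_R had scaled signals of 11.1 in iPS-OSH, 6.80 in iPS-J, 4.75 in ESC and 0.00433 in MEF, where it was not well above background. It stood at least 954-fold, 583-fold and 407-fold above MEF, and both of its probes were past 2-fold. Region chr13:66381200-66410200_R had signals of 10.8, 7.49 and 4.95 against 0.0210, also not well above background in MEF, and all 4 of its probes were higher. Region chr13:65716675-65765575_F had 9.15, 6.55 and 2.74 against 0.0982, with 2 of 3 probes higher in each pluripotent array and the other probe 2-fold below MEF in iPS-J. All pluripotent signals lay far above MEF and fell in the same order in these 3 regions, iPS-OSH highest and ESC lowest. The signals of chr13:66381200-66410200_R come from a probe that shares no run with another region. Its printed probe, which does, was dimmer, with 2.93 in iPS-OSH and 0.00433 in MEF. The gene probe of C330022B21Rik, 39.4 kb from the second region on its strand, was also higher, by 7.62, 8.73 and 7.12 log2.

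Several regions above MEF lie over genes now listed as lncRNA in RefSeq. Region chr11:97457180-97487074_F, over 2410003L11Rik, had signals of 5.23 in iPS-OSH, 8.18 in iPS-J, 3.77 in ESC and 0.0901 in MEF. All 7 of its probes were at least 2-fold higher in each pluripotent array, with log2 differences of 5.86, 6.50 and 5.39 for the brightest, and the gene probe of 2410003L11Rik stood higher by 7.02, 7.62 and 6.63. The region was thus borne out by every probe and by a gene probe in it. Region chr8:89996710-90049453_F, over Gm2694, had 3.02, 4.73, 10.0 and 0.0744, and all 3 probes were higher. ESC was here the highest array, 3.32-fold above iPS-OSH. All 3 probes share runs of 45 bases with probes of other regions. Region chrX:135882029-135892277_R, over C330013F16Rik, now Platr21 (pluripotency-associated transcript), had 2.07, 1.75, 1.54 and 0.0403, and all 3 probes were higher. Its differences from MEF, 5.68, 5.44 and 5.26, were nearly the same on the 3 pluripotent arrays. Its probes share runs of 57, 37 and 23 bases with probes of other regions and 1 shares 50 bases with a gene probe, so they are not independent of them.

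Other regions above MEF had no gene probe inside. Region chr7:48794017-48815817_R, 1.23 kb from the probe of Gm6871, had signals of 2.31, 1.85, 2.31 and 0.0130, the last not well above background, and all 5 probes were higher. The Gm6871 probe itself did not follow, with differences of -0.87, -1.35 and -0.26. Region chr10:62347876-62374346_R had 1.38 in iPS-OSH, 1.51 in iPS-J, 1.40 in ESC and 0.0349 in MEF, with 7, 8 and 8 of 9 probes higher. Its nearest gene probe, of Slc25a16, lies 34.2 kb away on the opposite strand and differed by 0.02, 0.16 and -0.39. On the forward strand of the same interval a probe matched, in antisense, the RefSeq promoter window (GRCm38.p6) of Tet1, the gene of an enzyme that oxidizes methylated cytosine.

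Some regions above MEF lie over or near coding genes, and whether their probes read those genes was not worked out. Region chr8:67552315-67561235_R, with 1 probe, lies over Gm10664, now Apela, a gene once listed as noncoding that encodes a small peptide hormone. Its signals were 9.46 in iPS-OSH, 11.2 in iPS-J, 5.89 in ESC and 0.0878 in MEF, and the Apela probe was higher by 9.17, 9.45 and 8.66. Region chr9:114412295-114418384_R, 2.03 kb from the probe of Trim71, an RNA-binding ubiquitin ligase of early embryos, had 7.61, 7.90, 5.20 and 0.216, with 2 of 3 probes higher. On its opposite strand the same interval had 0.176, 0.113, 0.258 and 0.109, a smaller difference, with ESC 2.37-fold above MEF. Of the 5 probes on that strand 2, 2 and 3 were at least 2-fold above MEF in iPS-OSH, iPS-J and ESC.

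Regions over hosts of the miR-17-92 family were also above MEF. Region chr14:115443612-115445950_F, over Mir17hg, the host of the miR-17-92 cluster, had signals of 5.29, 4.29, 1.88 and 0.421, and its differences of 3.65, 3.35 and 2.16 were close to those of the gene probe (3.46, 3.36 and 1.84). Region chrX:50087925-50101700_R covers the related cluster on the X chromosome. Its brightest probe had 0.346 in iPS-OSH, 0.523 in iPS-J, 0.264 in ESC and 0.00433 in MEF, not well above background there, and stood higher by at least 4.89, 5.49 and 4.50. Its other probes, save the one below, were likewise not well above background in MEF.

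That probe lies inside the miR-92a-2 hairpin at mm9 chrX:50095036-50095095, reverse strand. It holds all 22 bases of the 5′ arm, in capitals in the probe, and 16 of the 21 bases of the 3′ arm. The mature sequences are RefSeq's (GRCm38.p6), with the seed, bases 2 to 8, in capitals.
chrX:50087925-50101700_R: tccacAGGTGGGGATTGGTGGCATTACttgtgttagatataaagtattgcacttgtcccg
mmu-miR-92a-2-5p: aGGUGGGGauugguggcauuac
mmu-miR-92a-3p: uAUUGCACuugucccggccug
The hairpin probe had 0.0848, 0.109, 0.109 and 0.0755 and was well above background on all 4 arrays. It differed from MEF by 0.17, 0.53 and 0.54 log2, unlike every other probe of the region.

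**Figure D3:**
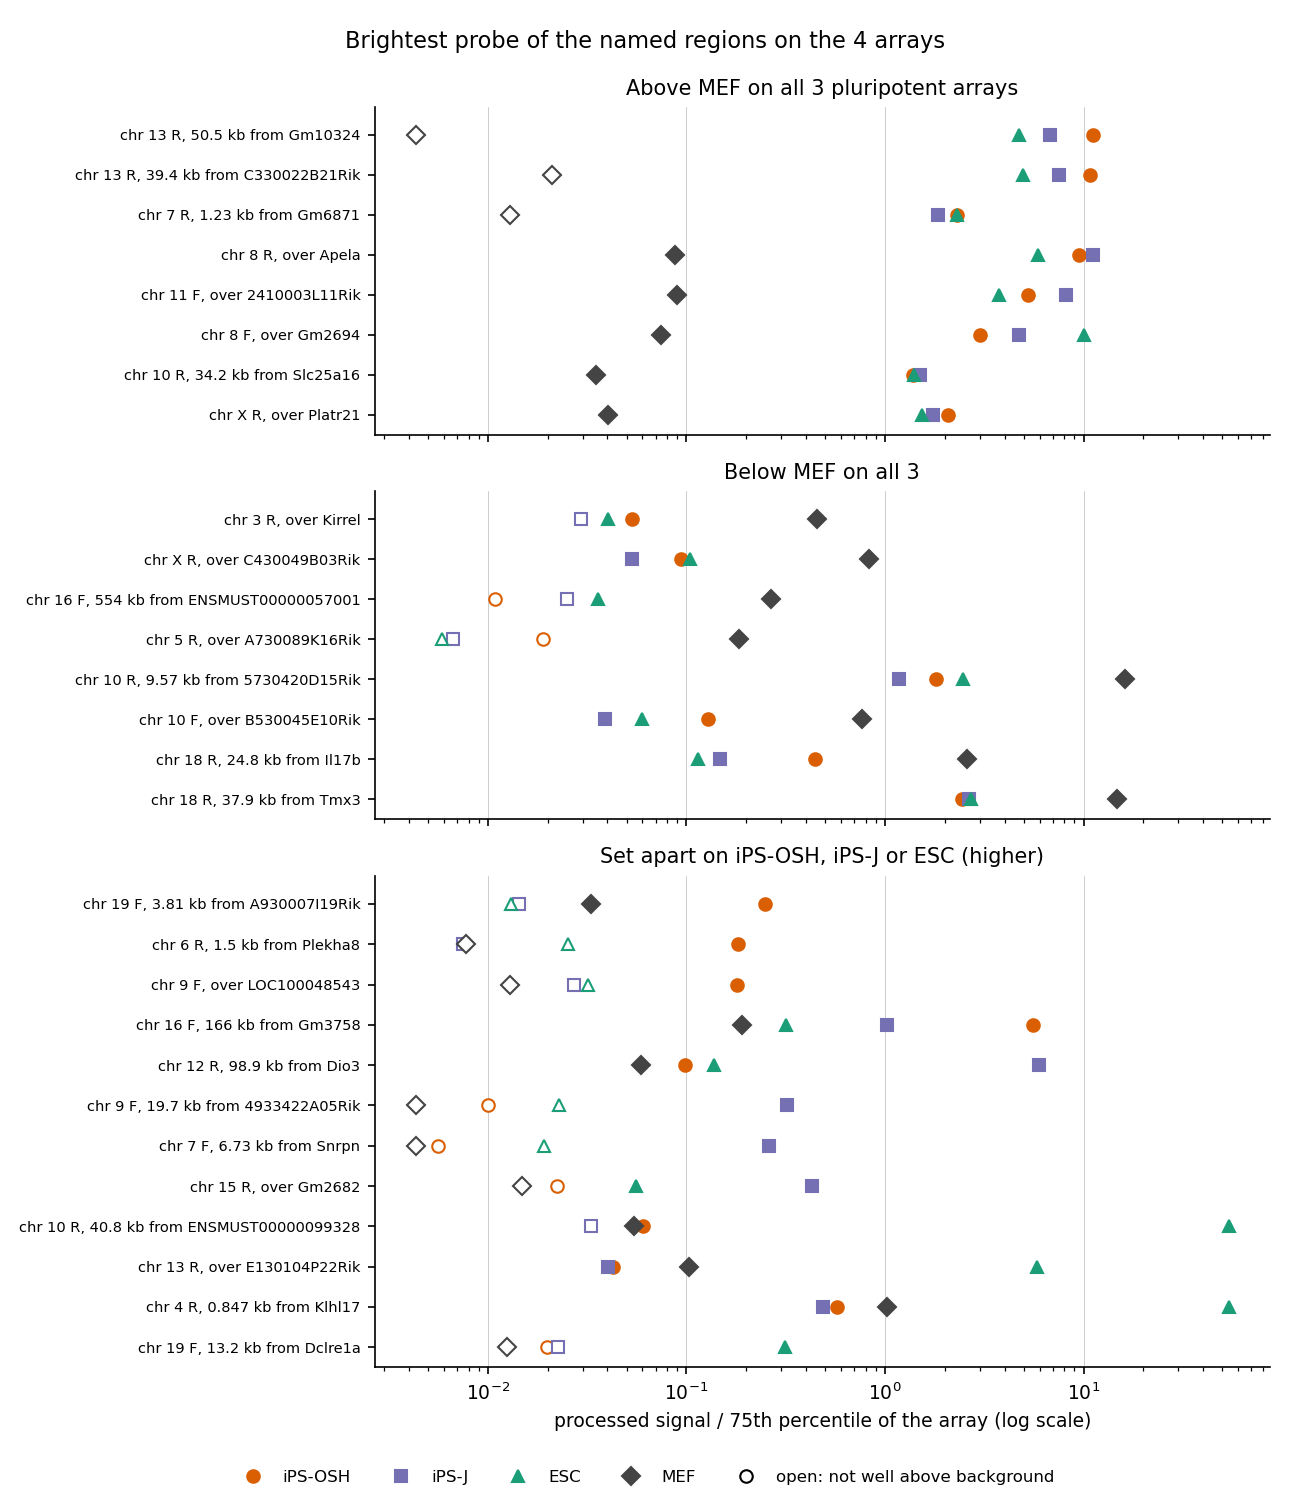
Scaled signal (log axis) of the brightest probe of the regions named by rank on the 4 arrays, labelled by chromosome, strand (F or R) and nearest gene probe; open symbols are not well above background. In the top panel MEF lies far left of the pluripotent arrays, as for Platr21 with 0.0403 in MEF and 1.54 to 2.07 elsewhere, and in the middle panel MEF lies to the right.

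Regions below MEF on all pluripotent arrays had smaller differences. Region chrX:50407969-50410370_R, over C430049B03Rik, had scaled signals of 0.0936 in iPS-OSH, 0.0531 in iPS-J, 0.104 in ESC and 0.826 in MEF. All 3 probes were lower in each array, and the gene probe fell by 3.24, 4.21 and 2.83 log2, close to the region's 3.14, 3.96 and 2.99. Region chr5:77084398-77086144_R, over A730089K16Rik, was well above background in MEF alone (0.183), and both probes were lower on each pluripotent array. Region chr3:86827945-86886695_R, over Kirrel, an adhesion protein gene, had 0.0534, 0.0294 (not well above background), 0.0404 and 0.457, but 2 of 7 probes were lower and 1 in iPS-OSH and 2 in ESC were higher. The Kirrel probe fell by 2.24, 2.89 and 3.24. Of the 8 regions named below MEF, 2 lie on chromosome 18, chr18:61809278-61825191_R with 3 of 3 probes lower and chr18:90750100-90772025_R with 1 of 2.

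A single probe decided some of these. Region chr10:94900849-94928059_R had 1.82, 1.18, 2.48 and 16.1 on its brightest probe, which was the only one of the 9 probes with a value that was lower on the pluripotent arrays. Of the others, 8 were at least 2-fold above MEF in ESC and 3 in each iPS line. Regions chr16:40651649-40653314_F and chr10:98761521-98885681_F also rested on few probes, with 1 of 3 and 1 or 2 of 3 lower. Over all regions with several probes, at least 2 probes past 2-fold bore out 213 of 385 (55.3%) of those higher in iPS-OSH than MEF and 630 of 1160 (54.3%) of those lower. For iPS-J these shares were 62.6 and 48.9% and for ESC 50.4 and 42.3%.

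**Figure D4:**
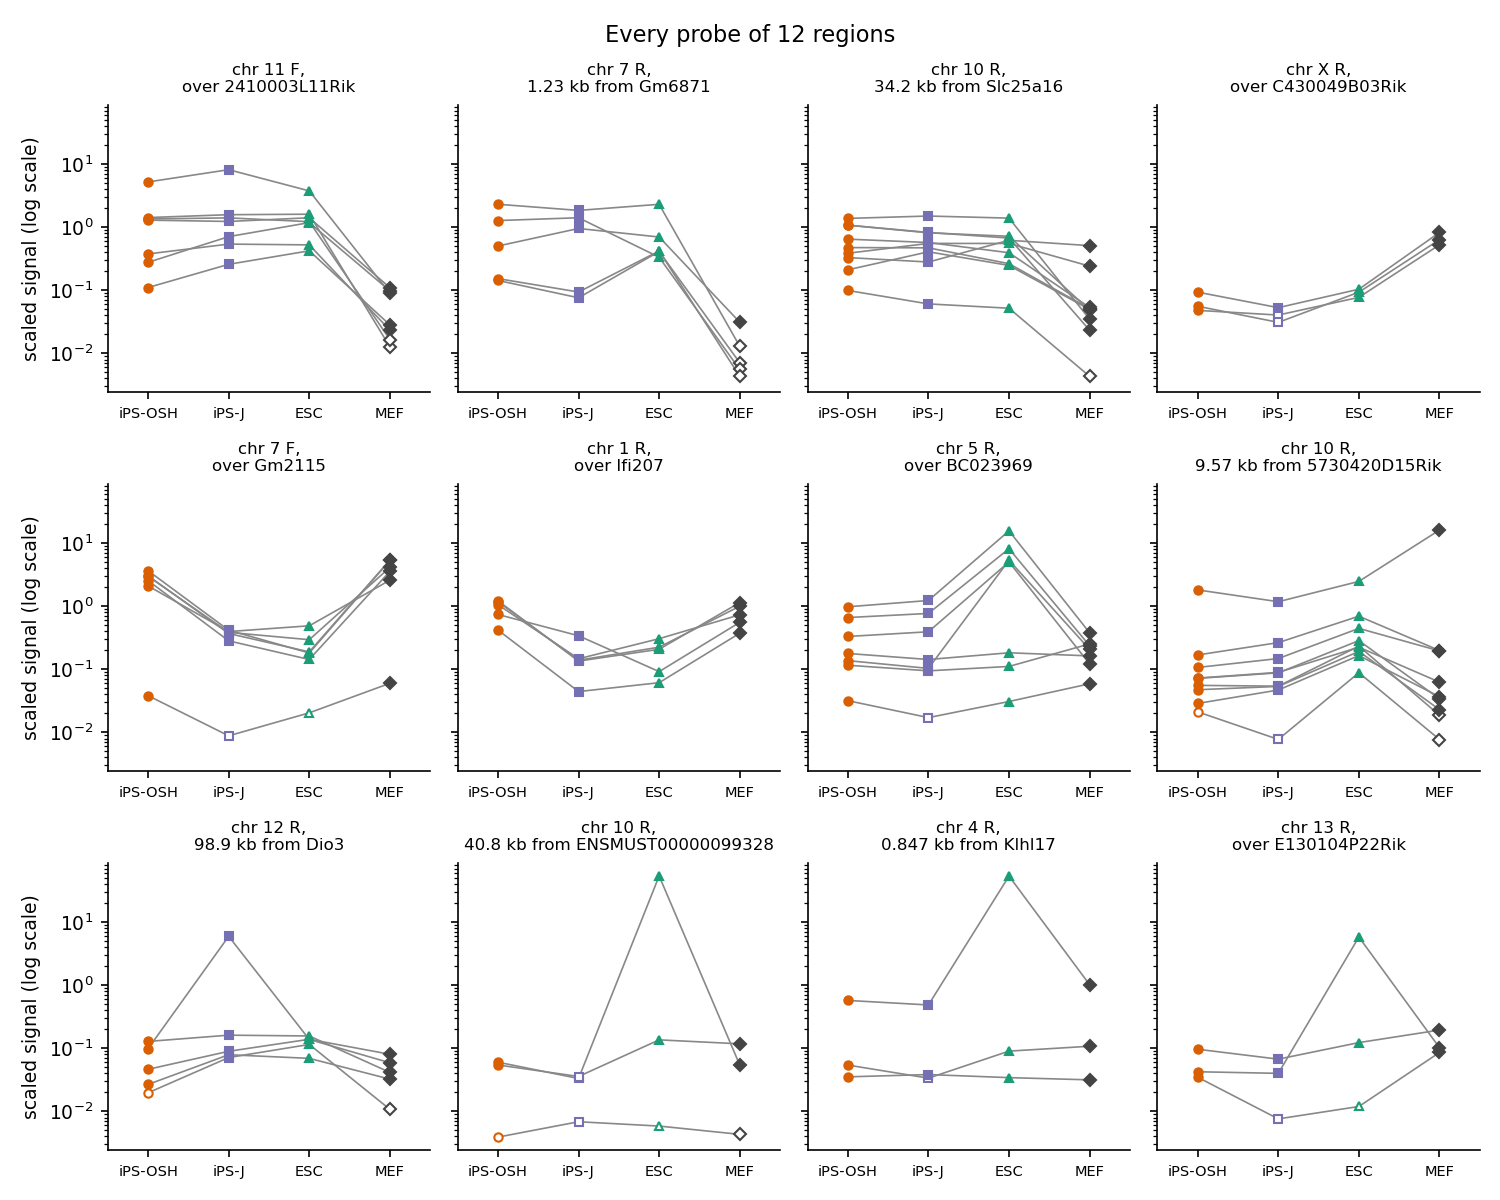
Scaled signal (log axis) of every probe of 12 regions on the 4 arrays, with lines joining the values of a probe and open symbols for those not well above background. In the top row all or most probes move together, as all 7 over 2410003L11Rik, while in the bottom row a single probe is high on iPS-J or ESC, as 54.1 beside 0.136 and 0.00585 for the other probes in ESC.

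Region chr11:96175764-96176029_F, 6.86 kb from Hoxb4, a member of the homeobox family that sets position along the body axis, had 0.235 in iPS-OSH, 0.0508 in iPS-J, 0.118 in ESC and 0.580 in MEF, in the same direction as the Hoxb4 probe, which fell by 1.44, 2.68 and 3.42.

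In 41 of 4071 regions (1.01%, against 3.92% of all features) iPS-OSH and MEF both stood at least 2-fold above iPS-J and ESC, and in 38 (0.933%, against 2.38%) both stood below. These regions separate iPS-OSH from the other pluripotent arrays in the direction of MEF, as the 8 fibroblast markers do (265 in iPS-OSH, 53.2 in iPS-J, 43.3 in ESC). The part of fibroblast RNA in these regions was not tested.

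Region chr7:91558475-91733625_F, over Gm2115, had the highest iPS-OSH signal of those named among them, with signals of 3.66 in iPS-OSH and 5.32 in MEF against 0.416 in iPS-J and 0.182 in ESC. Of its 6 probes, 5 were higher in iPS-OSH than in iPS-J and ESC, and the Gm2115 probe was higher by 3.08 and 3.83. Region chr2:128137419-128141735_R, 0.304 kb from Gm14005, now Morrbid, a noncoding RNA of myeloid cell survival, had 0.560 and 1.43 against 0.0706 and 0.0729, with 3 of 3 probes higher in iPS-OSH than in either. Here iPS-OSH lay clearly between MEF and the other lines. Region chr1:175654606-175672031_R, over AI607873, now the interferon-inducible gene Ifi207, had 1.22 and 1.14 against 0.135 and 0.208, with 5 of 5 probes higher. The Ifi207 gene probe differed by 0.27 between the iPS lines, and so did not follow the region. Region chr13:15947521-15999246_F had 1.51 and 1.30 against 0.172 and 0.133, with 4 of 5 probes higher in iPS-OSH than in iPS-J and in ESC. Region chr6:34548561-34612216_F, with 1 probe, had 2.04 and 6.41 against 0.451 and 0.352. Region chr6:31233512-31241062_F was not well above background in iPS-J and ESC, and had 0.484 in iPS-OSH and 0.745 in MEF on 1 of its 2 probes.

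Regions set apart on 1 pluripotent array were most frequent for ESC above the others, an order that depends on the scaling. iPS-OSH stood at least 2-fold above the other 3 arrays in 28 of 4153 regions (0.674%, against 0.643% of all features) and below in 47 (1.13%, against 1.2%). For iPS-J 44 of 3992 (1.1%, against 1.68%) were above and 95 (2.38%, against 1.79%) below. ESC stood above in 428 of 4182 (10.2%, against 8.32%) and below in 25 (0.598%, against 1.39%). The iPS-OSH shares were near the background. The other counts moved with the processing. With centring ESC stood above in 96 regions and iPS-J in 98. In the unscaled table ESC stood above in 240, while iPS-J stood below in 281, and with normexp iPS-J stood below in 9.

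The regions on chromosome 16 shown above were both highest in iPS-OSH. Region chr16:3337275-3355950_F had 5.55 in iPS-OSH, 1.03 in iPS-J, 0.317 in ESC and 0.190 in MEF, with 4 of 5 probes at least 2-fold higher in iPS-OSH than in each other array. Region chr16:3111550-3130500_R had 3.41, 1.1, 0.245 and 0.0491, with all 3 probes higher in iPS-OSH than in each other array. Both fell in the order iPS-OSH, iPS-J, ESC and MEF. The values of chr16:3337275-3355950_F come from a probe that shares no run with another region in the same orientation. The printed probe of that region, which differs at 1 base from that of the other region, had 3.88, 1.53, 0.414 and 0.119. The chromosome 5 pair, beside Speer4e and Speer4d, had a different order. Region chr5:14943275-14944205_F had 0.600, 0.0602, 0.313 and 0.145, and region chr5:15146475-15170100_F had 0.633, 0.0678, 0.218 and 0.133. iPS-J was lowest and iPS-OSH highest in both, 9.97-fold and 9.33-fold above iPS-J, with 2 of 2 and 4 of 4 probes higher.

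The region where iPS-J stood farthest above all other arrays rested on 1 probe. Region chr12:111617728-111665403_R, 98.9 kb from the probe of the imprinted gene Dio3, had 0.0988 in iPS-OSH, 5.97 in iPS-J, 0.138 in ESC and 0.0590 in MEF on its brightest probe. Its other 4 probes lay between 0.0714 and 0.162 in iPS-J, and so did not show that signal, although 4 of the 5 were at least 2-fold above MEF. Region chr7:67111261-67120697_F, 6.73 kb from Snrpn, was well above background in iPS-J alone (0.259), on 1 of 4 probes. Region chr15:59952094-60018666_R, over Gm2682 with 1 probe, had 0.428 in iPS-J and 0.0559 in ESC and was not well above background elsewhere. The 8 endoderm markers were also highest in iPS-J (147 against at most 20.7), and the part of such cells in these signals was not tested. Conversely, region chr6:134875724-134931975_F, over Lockd, a noncoding RNA downstream of Cdkn1b, was low in iPS-OSH, with 0.0535 against 0.498, 0.169 and 0.533. The Lockd gene probe showed the same order, with a fall of 3.28 from iPS-J to iPS-OSH.

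ESC had the brightest single-array signals, and again some rested on 1 probe. Region chr10:95176634-95180141_R had 0.0603, 0.0332 (not well above background), 54.1 and 0.0546 in iPS-OSH, iPS-J, ESC and MEF, but its other probes had 0.136 and 0.00585 in ESC. Region chr4:155602145-155602619_R, 0.847 kb from Klhl17, had 0.574, 0.487, 53.8 and 1.02, and its other probes at most 0.0903 in ESC. Region chr13:28551902-28975446_R had 0.0425, 0.0401, 5.82 and 0.102, also on 1 of 3 probes. None of these probes shared a run of 20 bases with any gene probe or probe of another region. The nearest gene probes of the first and second region differed between ESC and MEF by 0.39 and -0.85, and did not follow.

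Other ESC regions were borne out by several probes. Region chr5:23195569-23218551_R had 0.981, 1.23, 15.7 and 0.380 on its brightest probe, and 4 of 7 probes were at least 2-fold higher in ESC than on each other array. The probe of BC023969 inside it differed by 5.43 between ESC and MEF. Region chr1:85117750-85129200_F, 7.53 kb from A530040E14Rik, had 0.232, 0.186, 2.28 and 0.0274, with 5 of 5 probes higher in ESC than in MEF and in iPS-J and 4 of 5 higher than in iPS-OSH. Region chr1:87343550-87362900_F had 0.208, 0.215, 2.35 and 0.0277, with 3 of 3 probes higher in ESC than on each other array. The brightest probes of these chromosome 1 regions share runs of 57 and 50 bases with gene probes, so they are not independent of them. On the lower side, region chr5:35975265-35982561_R had 8.37 in iPS-OSH, 12.7 in iPS-J, 1.68 in ESC and 8.22 in MEF, and all 4 probes were lower in ESC than on every other array. Region chrX:18734106-18744367_R, over Gm14636, had 0.240, 0.113 and 0.168 on the other arrays, while ESC read it not well above background.

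Where both strands of an interval were probed, both usually gave a signal. Of 1063 such intervals with values, both strands were well above background in 966 on MEF, 940 on ESC, 936 on iPS-OSH and 796 on iPS-J. Calls of a 2-fold difference coincided less often. Between iPS-OSH and MEF, both strands were 2-fold different in the same direction in 103 of 1007 intervals, in opposite directions in 57, and on 1 strand only in 446. Between ESC and MEF the counts were 59, 35 and 428 of 1008. Over all regions 10.9% were above and 29.6% below MEF in iPS-OSH, and 22.4 and 9.12% in ESC. The overlap that these shares alone would give was not computed, so the counts do not show that strands share differences.

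Probes on opposite strands of the same bases gave a direct comparison. For 1158 pairs sharing at least 40 bases, both strands were well above background in 741 in MEF, 644 in iPS-OSH, 609 in ESC and 385 in iPS-J, and neither in 94, 104, 104 and 253. The differences from MEF on the strands were nearly unrelated across pairs, with Pearson's r of 0.16 for iPS-OSH, 0.11 for iPS-J and 0.06 for ESC over 836, 783 and 824 pairs. These points share the arrays and the base composition of the probes. Most pairs thus gave a signal on both strands in MEF, but not the same differences between arrays.

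Regions followed a gene mostly where a gene probe lay inside them on the same strand. Of 273 such regions that were 2-fold different between iPS-OSH and MEF, the gene probe was 2-fold different in the same direction in 49.5% and in the opposite direction in 8.79%. For iPS-J the shares were 56.7 and 8.10% of 284, and for ESC 48.4 and 7.94% of 252. With the gene probe inside on the opposite strand the same direction fell to 25.9, 26.3 and 30.7%, and with the opposite direction at 17.2, 22.2 and 16.8%. At 10 to 100 kb it was 30.5, 32.2 and 26.4%, against 14.3, 15.2 and 19.2% opposite. Pearson's r across all compared pairs inside on the same strand was 0.58, 0.58 and 0.50 over 690, 672 and 694 pairs, and at 10 to 100 kb it was 0.15, 0.14 and 0.09 over 1474, 1416 and 1492. Pairs inside 1 region can read the same transcript, and all points share the arrays. Over all features 13.6% were above and 25.3% below MEF in iPS-OSH, 16.5 and 25.7% in iPS-J, and 22.8 and 16.5% in ESC. The agreement that these shares alone would give was not computed, so the shares at a distance do not show that regions follow genes.

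**Figure D5:**
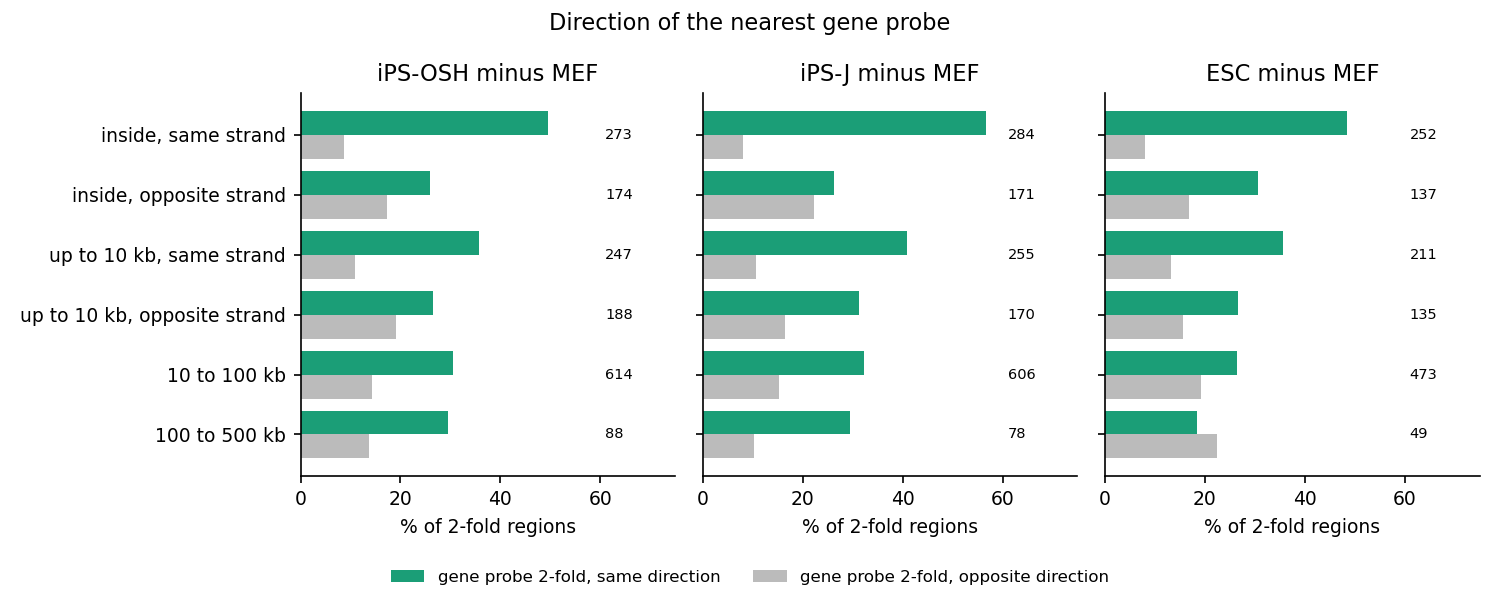
Share (%) of 2-fold different regions whose nearest gene probe was 2-fold different in the same (green bars) or opposite (grey bars) direction, by position and strand of the gene probe; the number at the right of each pair of bars counts the regions. The same direction is most frequent for gene probes inside the region on its strand, 48.4 to 56.7%, and lies at 18.4 to 40.8% in the other classes drawn; the class over 500 kb, with 3 regions in each comparison, is left out.

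Regions beside listed noncoding RNA genes were called about as often as features in general in iPS-OSH. Of 44 listed long noncoding RNA genes 24 are named on the array, and 46 regions lay within 10 kb of 12 of them. Among these, 6 of 45 were 2-fold above MEF and 12 below in iPS-OSH (median -0.25), 4 and 7 of 45 in iPS-J (-0.23), and 11 and 6 of 46 in ESC (0.18). The shares of all features were 13.6% above and 25.3% below MEF in iPS-OSH, 16.5 and 25.7% in iPS-J, and 22.8 and 16.5% in ESC. These medians were above those over all regions in both iPS lines and below it in ESC. Beside Mir17hg, described above, region chr14:62294849-62301165_R over Dleu2, the host of miR-15a and miR-16-1, had 0.0607, 0.159, 0.0366 (not well above background) and 0.431, with both probes lower on each pluripotent array. The Dleu2 gene probe lay within 0.27 log2 of MEF on all 3. Region chr11:3521324-3539552_F, 0.651 kb from the Tug1 probe on the opposite strand, had 0.0177 (not well above background), 0.0599, 0.176 and 0.0363.

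Few listed coding genes had a region nearby, and pluripotency genes did not stand out in this. Of 36 listed pluripotency genes, 35 of them on the array, 3 had a region within 10 kb, 7 regions in all. It was 4 of 38 fibroblast and mesenchymal genes, 2 of 38 Hox genes and 4 of 30 neural and developmental factors, but 12 of 24 long noncoding RNA genes. The share over all genes was not computed. Of the 7 regions beside pluripotency genes, 2 were above and 1 below MEF in iPS-OSH, 2 and 2 in iPS-J, and 3 and 0 in ESC. These are too few to set against the shares of all features given above. The region beside Prdm14, chr1:13058312-13099826_R, had 0.0906, 0.123, 0.244 and 0.271 on its brightest probe, while 4 of 5 probes were higher than MEF in iPS-OSH, 0 in iPS-J, and 2 for ESC. The Prdm14 probe, 3.73 kb away on the same strand, was higher by 7.50, 6.84 and 7.60. Region chr8:91471819-91551119_F, 0.159 kb from Sall1 on the opposite strand, had 1.70, 1.21, 1.90 and 2.80, while Sall1, a zinc finger factor, was higher by 6.41, 6.61 and 6.77. Both regions thus lay beside strongly raised genes with no such rise on their brightest probe. Of the 9 regions beside fibroblast and mesenchymal genes, 5 were below and 1 above MEF in iPS-OSH, 3 and 1 in iPS-J, and 2 and 2 in ESC, against 25.3, 25.7 and 16.5% of all features below. Region chr8:123571640-123607481_R, over 1110050K14Rik, now Fendrr, a noncoding RNA of lateral mesoderm, had 0.0657, 0.0417, 0.263 and 0.0514. Among 12 regions beside neural and developmental factors, the region over Emx2os, antisense to Emx2, chr19:59498190-59531390_R, had 0.140, 0.0515, 0.121 and 0.454, with 4, 5 and 5 of 5 probes below MEF.

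The region probes also differ from other probes in sequence. The motif AATAAA, searched on the probe strand, lay in 3.92% of the 16181 region probes and in 12.6% of the 39500 other probes. Its reverse complement TTTATT lay in 3.02 and 4.03%. Probes for genes thus hold the polyadenylation signal more often than its complement, and region probes scarcely do. Region probes with AATAAA were well above background in 66.4% in iPS-OSH, 51.4% in iPS-J, 67.5% in ESC and 71.5% in MEF, below the 70.9, 53.9, 69.7 and 75.5% of those without. Region probes with TTTATT were lower still, at 60.7, 47.6, 60.3 and 66.1%. Other probes with AATAAA went the other way, with 84.0, 77.1, 83.6 and 85.5% against 80.0, 69.7, 80.1 and 83.0% without. The part of base composition in these shares was not tested. A match describes the letters of a probe and is not a mapped polyadenylation site.

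Few region probes lay at a known gene start, and how many intervals reach one was not worked out. In RefSeq promoter windows of GRCm38.p6, from 250 bases before to 50 after a start, 170 region probes of 121 regions had their whole sequence, 84 on the strand of a gene and 90 on the opposite strand, some in windows of both kinds. Those on the gene's strand were well above background in 73.8, 57.1, 78.6 and 84.5% of cases in iPS-OSH, iPS-J, ESC and MEF, and those on the opposite strand in 75.6, 61.1, 71.1 and 78.9%. The shares over all region probes were 70.7, 54.2, 70.0 and 75.5%, below each of these. Detection rose with GC content, as given above, and its part in this difference was not tested. Across chromosomes, the share of regions above MEF on all pluripotent arrays ran from 3.33% on chromosome 3 to 9.39% on chromosome 8 and 9.02% on chromosome 13, and the share below from 2.86% on chromosome 11 to 10.1% on chromosome 16.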

How the data were processed

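Total RNA of each population was amplified, labelled with Cy3 and hybridised to 1 array, per the labels' protocols. Per the file headers, spots were read by Agilent Feature Extraction 10.5.1.1 with the mm9 build, and the deposited processed signal is a background-corrected intensity on a linear scale, as is the mean and background intensity used for normexp. The deposited flags for well above background, uneven and outlying spots were taken as given. The authors' value table, an intensity, deviated from the processed signal by at most 0.497%.

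Processed signals were divided by the 75th percentile of each array over non-control probes, and log2 was taken. Uneven and outlying spots were left out (203, 531, 390 and 302 for iPS-OSH, iPS-J, ESC and MEF). A region or gene was represented by its brightest probe with a value on all 4 arrays. Where a probe was well above background on 1 array of a pair only, the difference is a lower bound against the higher of the measured signal and the lowest signal called well above background. The lowest such scaled signals were 0.0142, 0.0234, 0.0252 and 0.0117. All features means regions and genes together. With 1 array for each population the number of arrays limits the precision. A fold of 2, and of 4 where stated, served as the rule of size.

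Named regions were, for each pair and direction, the 5 largest measured differences and 3 largest bounds, the 8 regions farthest from MEF on all pluripotent arrays, the 4 farthest from all others on 1 array, and up to 4 for each gene list within 10 kb. Regions with printed hairpin, shared or promoter sequence were chosen after their values were seen. The members and lists were chosen with earlier results of these data known. Symbols of genes were updated through RefSeq, and promoter and microRNA sequences are RefSeq's (GRCm38.p6). Regions at 1 locus are not reported here. Exon and untranslated parts were not analysed here.

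Python 3.11.15 with numpy 2.4.6 and pandas 2.3.3 was used, and R 4.3.3 with limma 3.58.1 for normexp with an offset of 50. The steps were tested on simulated data for iPS-OSH against MEF over 4599 regions. Of 94 compared regions changed by 2 log2, 89.4% were recovered, of 94 changed by 4 log2 92.6%, and 3.19% of unchanged regions passed 2-fold. The simulated arrays held only the spread of same-sequence probes, with no shift between arrays. The last share is therefore not a rate of false calls in the measured arrays. Alternatives covered scaling, background correction, detection, uneven spots, probes per region and distance classes.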

Additional observations from a re-analysis of the deposited data

Results flagged for a closer look

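For 10 of the 91 named regions the pluripotent arrays differed from MEF in opposite directions, each by at least 2-fold. With 1 array for each population these differences were not tested, and each value below is the log2 distance between the highest and the lowest array.

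ESC stood above and iPS-J below MEF in 3 of them. Region chr13:28551902-28975446_R had a distance of 7.18, with 5.83 in ESC and -1.35 in iPS-J. Region chr4:155602145-155602619_R had 6.79, with 5.72 and -1.07. Region chr4:3746945-3747603_F had 4.02, with 2.78 and -1.24. The first and second rest on 1 bright probe, and with the median over probes ESC against MEF became -0.26 in the second.

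iPS-OSH stood above and ESC below MEF in region chr8:124364048-124365705_F, with a distance of 3.55 (2.31 and -1.25), and in region chr13:3497296-3500441_F, with 3.32 (2.01 and -1.31). In both, iPS-J lay with iPS-OSH, and ESC was 2-fold below MEF on 1 probe. In the latter region ESC against MEF became 0.17 with the median over probes, so that the opposite direction was not seen. Region chr5:14943275-14944205_F, 1 of the near-identical pair on chromosome 5, had a distance of 3.32, with 2.05 in iPS-OSH and -1.27 in iPS-J.

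iPS-J stood above and iPS-OSH below MEF in 3 regions. The distance was 4.68 in region chr5:110964854-110965222_F (3.63 and -1.05), 3.39 in region chr12:33808493-33829143_F (2.00 and -1.39) and 2.75 in region chr1:152001112-152012796_F (1.09 and -1.66). In each, 1 probe was 2-fold higher in iPS-J. With the median over probes iPS-J against MEF became -0.30 in the first and -0.17 in the second. ESC above and iPS-OSH below MEF was seen in region chr11:3521324-3539552_F on the strand opposite Tug1, with a distance of 3.32 (2.28 and -1.04).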

How the results depend on the processing

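All arrays were single, so no replicate could be left out. No paired analysis was possible because the labels give no replicate numbers and each population has 1 array. The regions' median relative to all features kept its sign in the pairs with MEF and ESC under all 12 scaling, background and filter settings, whereas in iPS-OSH against iPS-J it ran from -0.00 to 0.10. Settings that only divide each array by 1 factor could hardly change this sign, so they are no separate support. Counts were less steady, with 132 of 264 alternative counts more than 1.5 times away from the reported one. Of 5363 single-region values, 1157 moved by more than the technical SD of same-sequence probes without such a turn of sign as is listed below. A further 32 turned sign from a difference of at least 2-fold. Of 66 medians, 5 moved, and of 8 detection counts 1. The cause of each change was not tested, except that a stricter filter, fewer probes or a centring acts by its construction. Signals near background limit the dim regions, and differences against an undetected array are bounds. Centring on regions, support by 2 probes, and every alternative for regions set apart on 1 array or shared by iPS-OSH and MEF were chosen after seeing the data.

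With the 75th percentile of the commonly detected probes, 2-fold regions numbered 103 higher for iPS-J against ESC. The patterns across arrays held 651 ESC alone higher and 11 ESC alone lower. With all compared arrays required to be well above background, 2-fold regions numbered 164 higher for iPS-OSH against iPS-J. The patterns across arrays held 134 on all 3 below MEF, 9 iPS-OSH alone higher, 17 iPS-J alone higher and 50 iPS-J alone lower. There were further 27 iPS-OSH and MEF above iPS-J and ESC. With at least 2 probes of a region required to pass 2-fold, 2-fold regions numbered 213 higher and 630 lower for iPS-OSH against MEF, 243 higher and 575 lower for iPS-J against MEF and 423 higher and 145 lower for ESC against MEF. The other pairs gave 55 higher and 911 lower for iPS-OSH against ESC, 43 higher and 847 lower for iPS-J against ESC and 71 higher and 77 lower for iPS-OSH against iPS-J. The patterns across arrays held 136 on all 3 pluripotent arrays above MEF, 69 on all 3 below MEF, 7 iPS-OSH alone higher and 3 iPS-OSH alone lower. There were further 5 iPS-J alone higher, 9 iPS-J alone lower, 98 ESC alone higher and 4 ESC alone lower. There were further 20 iPS-OSH and MEF above iPS-J and ESC and 18 iPS-OSH and MEF below iPS-J and ESC. With each array centred on the regions detected on all 4 arrays, 2-fold regions numbered 659 lower for iPS-OSH against MEF, 721 lower for iPS-J against MEF and 598 higher and 773 lower for ESC against MEF. The other pairs gave 716 higher and 421 lower for iPS-OSH against ESC and 720 higher and 443 lower for iPS-J against ESC. The patterns across arrays held 50 iPS-OSH alone higher, 18 iPS-OSH alone lower, 98 iPS-J alone higher and 46 iPS-J alone lower. There were further 96 ESC alone higher, 189 ESC alone lower, 68 iPS-OSH and MEF above iPS-J and ESC and 14 iPS-OSH and MEF below iPS-J and ESC. With the deposited value table and no scaling, 2-fold regions numbered 300 higher and 2264 lower for iPS-J against MEF, 605 higher and 766 lower for ESC against MEF and 292 higher for iPS-OSH against ESC. The other pairs gave 629 higher and 110 lower for iPS-OSH against iPS-J. The patterns across arrays held 446 on all 3 below MEF, 45 iPS-OSH alone higher, 31 iPS-OSH alone lower and 281 iPS-J alone lower. There were further 240 ESC alone higher, 103 iPS-OSH and MEF above iPS-J and ESC and 16 iPS-OSH and MEF below iPS-J and ESC. With detection set at the 95th percentile of ERCC control probes 2724 regions were detected in ESC. Under that rule, 2-fold regions numbered 247 higher and 827 lower for iPS-OSH against MEF, 309 higher and 839 lower for iPS-J against MEF and 614 higher and 216 lower for ESC against MEF. The other pairs gave 89 higher and 1162 lower for iPS-OSH against ESC, 75 higher and 1155 lower for iPS-J against ESC and 140 higher and 136 lower for iPS-OSH against iPS-J. The patterns across arrays held 161 on all 3 pluripotent arrays above MEF, 112 on all 3 below MEF, 11 iPS-OSH alone higher and 15 iPS-OSH alone lower. There were further 15 iPS-J alone higher, 27 iPS-J alone lower, 271 ESC alone higher and 16 ESC alone lower. There were further 20 iPS-OSH and MEF above iPS-J and ESC and 17 iPS-OSH and MEF below iPS-J and ESC. With the median over the probes of a region, the patterns held 31 iPS-OSH alone lower, 59 iPS-J alone lower and 16 ESC alone lower. With no filter on detection, 2-fold regions numbered 431 higher for iPS-OSH against iPS-J. The patterns across arrays held 72 iPS-OSH alone lower, 209 iPS-J alone lower and 51 ESC alone lower. With normexp background correction, 2-fold regions numbered 295 higher and 614 lower for iPS-OSH against MEF, 470 lower for iPS-J against MEF and 250 lower for ESC against MEF. The other pairs gave 111 higher for iPS-OSH against ESC, 89 higher and 890 lower for iPS-J against ESC and 90 higher and 141 lower for iPS-OSH against iPS-J. The patterns across arrays held 125 on all 3 below MEF, 15 iPS-OSH alone higher, 20 iPS-OSH alone lower and 27 iPS-J alone higher. There were further 9 iPS-J alone lower, 253 ESC alone higher, 14 ESC alone lower and 25 iPS-OSH and MEF above iPS-J and ESC. There were further 25 iPS-OSH and MEF below iPS-J and ESC. With quantile scaling, 2-fold regions numbered 652 lower for ESC against MEF, 403 higher and 953 lower for iPS-OSH against ESC and 347 higher and 809 lower for iPS-J against ESC. The patterns across arrays held 72 iPS-J alone higher, 34 iPS-J alone lower, 211 ESC alone higher and 99 ESC alone lower. There were further 24 iPS-OSH and MEF below iPS-J and ESC. With spike-in scaling, 2-fold regions numbered 534 higher and 875 lower for ESC against MEF, 380 higher and 966 lower for iPS-OSH against ESC and 239 higher for iPS-J against ESC. The other pairs gave 432 higher and 139 lower for iPS-OSH against iPS-J. The patterns across arrays held 444 on all 3 below MEF, 151 iPS-J alone lower, 176 ESC alone higher and 78 ESC alone lower. There were further 95 iPS-OSH and MEF above iPS-J and ESC and 16 iPS-OSH and MEF below iPS-J and ESC. With uneven and outlying spots kept, the patterns held 80 iPS-J alone higher.

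With both arrays required to be detected, the gene probe went the same way in 31.2% of 2-fold regions for iPS-OSH against MEF, 33.9% for iPS-J against MEF and 29.1% for ESC against MEF. Against ESC it did so in 22.5% for iPS-OSH and 16.5% for iPS-J, and in 30.4% for iPS-J with the gene probe inside on the same strand.

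With uneven and outlying spots kept, these differences of single regions turned sign (log2). Region chr5:120253747-120281800_R gave 3.40 for iPS-J against MEF. Region chr6:54592523-54593344_R gave -0.31 for iPS-OSH against MEF, -2.09 for iPS-OSH against ESC and -9.27 for iPS-OSH against iPS-J. Region chr9:82991830-82999937_F gave -11.37 for iPS-OSH against ESC. Region chrX:102567595-102589870_F gave 1.87 for iPS-J against MEF, 1.62 for iPS-J against ESC and -2.57 for iPS-OSH against iPS-J.

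With the median over the probes of a region, these differences of single regions turned sign (log2). Region chr10:94900849-94928059_R gave 0.97 for iPS-OSH against MEF, 1.26 for iPS-J against MEF and 2.66 for ESC against MEF. Region chr12:111617728-111665403_R gave -0.62 for iPS-J against ESC. Region chr10:98761521-98885681_F gave 0.60 for iPS-OSH against MEF and 0.072 for ESC against MEF. Region chr4:56480568-56658018_R gave 0.27 for iPS-J against MEF, -0.068 for iPS-OSH against ESC and -0.55 for iPS-OSH against iPS-J. Region chr4:155602145-155602619_R gave -0.26 for ESC against MEF. Region chr5:23195569-23218551_R gave -0.22 for iPS-OSH against MEF and -0.54 for iPS-J against MEF. Region chr13:3497296-3500441_F gave 0.17 for ESC against MEF. Region chr19:46419916-46421753_F gave -0.41 for iPS-J against MEF, -0.085 for iPS-J against ESC and 0.43 for iPS-OSH against iPS-J. Region chr12:33808493-33829143_F gave -0.17 for iPS-J against MEF and -0.24 for iPS-J against ESC. Region chr17:79042382-79052046_F gave 0.29 for iPS-OSH against ESC and 0.40 for iPS-OSH against iPS-J. Region chr5:110964854-110965222_F gave -0.30 for iPS-J against MEF and -1.64 for iPS-J against ESC. Region chr3:86827945-86886695_R gave 1.13 for iPS-OSH against MEF. Region chr1:13058312-13099826_R gave 0.65 for iPS-OSH against MEF.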
